A study of Mus musculus with 18 samples.

Results

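The genes described here are 54 mouse genes of mitosis and the G2/M transition, measured by bulk RNA sequencing in 4 comparisons of knockout and control libraries. They were taken by name from each of the 4 expression tables of the study: an entry counted if its name was the gene's, or a joined name that held it, and the entry with the highest mean was used where a name had several. All 54 were found in every table, out of 23138 named genes for the Kdm2b hippocampi, 23398 for the neurospheres and 54429 for the cortices and for the Rnf2 hippocampi. All 54 also reached a mean of 0.5 FPKM in each table (this unit corrects fragment counts for transcript length and for library size), so no member was lost to the filter on low values. The rule found members by gene name, and measured values entered only in the choice among several entries of a name. The list itself was chosen with earlier results of these data known.

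KDM2B binds unmethylated CpG islands through its CxxC zinc finger and recruits a variant form of Polycomb repressive complex 1, and RNF2 (RING1B) is a catalytic subunit of Polycomb repressive complex 1. Kdm2b Emx1-∆CxxC cKO mice carried a floxed exon 13 of Kdm2b, which encodes the zinc finger, and Emx1-Cre, which acts in the progenitors of the dorsal forebrain. Their controls were labelled Kdm2b fl/+ or Kdm2b fl/fl. Rnf2 Emx1-cKO mice were set against controls labelled Rnf2 fl/+ or Rnf2 fl/fl. Whole P0 hippocampi gave 3 control and 3 cKO libraries for Kdm2b and 2 and 2 for Rnf2, P0 cortices gave 2 and 2 for Kdm2b, and neurospheres grown from P0 hippocampi of Kdm2b control and cKO mice gave 2 and 2. P0 is the day of birth. Neurospheres are floating colonies of neural progenitors kept in medium with EGF and FGF2, and here they had been cultured for several generations before sequencing. Emx1-Cre spares interneurons, vessels, microglia and meninges, so tissue libraries mix cells with and without the deletion. The labels do not say whether the libraries of a group came from separate animals or cultures, so the p-values below measure the spread between these libraries only.

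A cell enters mitosis when cyclin B-bound CDK1 becomes active, and the products that follow condense the chromosomes, build the spindle, hold anaphase until every kinetochore is attached, and divide the cell. Transcripts of these genes build up in S and G2 phase and fall after division, and in cells that have left the cycle they are kept low by DREAM, a complex that binds CHR elements near their start sites. CCAAT boxes, bound by the activator NF-Y, often stand close by. In the brain at birth they mark radial glia, intermediate progenitors and other dividing cells, while neurons carry little of them. In whole tissue, fewer dividing cells and less RNA per dividing cell cannot be told apart.

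Most promoters of the members held both motifs. RefSeq windows on GRCm38.p6, each reaching from 250 bases before to 50 bases after a start site, were found for 45 of the 54 members (49 windows, since some genes had several starts). The windows without an entry were those of Aurkb, Ccna2, Cdc25c, Cdca2, Dlgap5, Foxm1, Kif20a, Smc4 and Tpx2. A CHR element, searched as TTTGAA, its reverse complement TTCAAA, or TTTAAA, which reads the same on both strands, was present in 42 of 49 member windows (85.7%) and in 27.6% of all 32851 windows of the table. A CCAAT box, searched as CCAAT or ATTGG, was present in 39 of 49 (79.6%) against 37.4% of all windows. Both motifs stood together in 36 of 49 member windows (73.5%) against 10.7%. The motifs were counted whether or not their letters overlapped. The stretches before the start site of Mki67, Top2a, Cdk1 and Cks2 are shown. These were the first 4 genes, in the order of the rule for values by library, with a window and few bases inside the gene as Ensembl places it. Letters run 5′ to 3′ along the gene's strand, capitals mark CHR elements and CCAAT boxes, and bases that Ensembl places inside the gene were left out.
Mki67 (chr7:135716380-135716529, minus strand): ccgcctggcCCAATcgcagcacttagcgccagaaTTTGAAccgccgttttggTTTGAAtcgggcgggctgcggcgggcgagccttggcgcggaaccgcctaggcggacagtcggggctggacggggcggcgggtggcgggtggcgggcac
Top2a (chr11:99024190-99024339, minus strand): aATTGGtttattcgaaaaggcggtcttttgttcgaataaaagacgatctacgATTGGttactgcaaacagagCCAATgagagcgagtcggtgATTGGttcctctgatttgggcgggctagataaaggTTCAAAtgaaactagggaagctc
Cdk1 (chr10:69352939-69353062, minus strand): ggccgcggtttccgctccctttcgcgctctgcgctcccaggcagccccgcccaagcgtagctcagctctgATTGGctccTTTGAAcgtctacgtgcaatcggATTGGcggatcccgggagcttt
Cks2 (chr13:51645082-51645231, plus strand): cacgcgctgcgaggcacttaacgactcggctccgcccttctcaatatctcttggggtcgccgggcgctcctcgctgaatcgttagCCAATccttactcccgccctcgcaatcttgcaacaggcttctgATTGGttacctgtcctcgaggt
Mki67 held a pair of CHR elements, starting 116 and 98 bases before the start site. Top2a held 4 CCAAT boxes in the stretch shown and a CHR element 23 bases before the start. Cdk1 held CHR elements starting 71 and 15 bases before the start, the nearer of them in the bases left out. Cks2 held CCAAT boxes and no CHR element in its whole window.

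The tables were made and normalised separately, so each comparison was tested within its own table, and FPKM values from different tables are only set side by side. In the 2 Kdm2b tables made with Cufflinks, some entries join neighbouring genes, and the value of such an entry cannot be given to 1 gene. In hippocampi these were Ccna2, Foxm1, Gtse1, Kif15, Kif22 and Plk1, and in neurospheres Birc5, Ccna2, Foxm1 and Kif22. The Kif22 entry, joined with Maz, Mvp, Pagr1a and Prrt2, averaged 187 FPKM in control hippocampi against 6.91 FPKM for Kif22 alone in control cortices, so it mostly counts other genes. Reads could be recovered for the cortex and Rnf2 tables, with 18480515 to 21905224 reads per cortex library and 14654894 to 16334420 per Rnf2 library. For the other tables they could not be recovered, and the paper states only a common sequencing depth for its RNA libraries. Members rested on 163 to 5434 reads per library in cortices and on 77 to 2942 in the Rnf2 hippocampi. Control neurosphere library 1 stood apart: entries that name no gene held 29.3% of its FPKM, against 0.876% to 1.95% in the other neurosphere libraries. Mir6236 alone held 22.6% of the FPKM of its named entries, against 0% to 1.39% in the others. Its FPKM total was 855276 against 452580 to 522964. The deletion itself could not be checked from these gene totals. Kdm2b, whose total includes exons outside the deleted one, ran from 28.1 to 31.9 FPKM in control hippocampi and from 26.2 to 28.2 in cKO hippocampi, and Rnf2 from 30.8 to 32.3 FPKM in its controls and from 27.8 to 28.5 in its cKO (adjusted p = 0.76).

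The first comparison asks how mitosis genes stand in neurospheres, cultures enriched for progenitors in which markers of neurons and astrocytes were still found. All 54 members were higher in Kdm2b cKO neurospheres than in control neurospheres. At an adjusted p under 0.05 (limma on log2(FPKM + 1), Benjamini-Hochberg over 12227 genes) 54 of 54 rose, where 10.7% of all genes tested rose and 11.6% fell. At the threshold of the study, a log2 fold change beyond 0.4 with an unadjusted p under 0.05, 53 of 54 rose, against a background of 11.4% higher and 13.2% lower. The exception was Kif22, whose joined entry gave 0.39. The median log2 fold change of the members was 0.98, from 0.39 to 1.32, whereas the median of all genes tested was -0.01. In terms of mean FPKM, the median member was 2.05 times as high in cKO as in control neurospheres, and 30 of the 54 were over 2-fold. In every member both cKO libraries lay above both control libraries, which held for 32.1% of all genes, with 34.4% the other way round. Rescaling every library to the same FPKM total, which raises the cKO libraries against control library 1, kept all 54 positive and 43 past the study's threshold, but left 0 at adjusted p under 0.05. That rescaling moved the median of all genes by 0.31, and the members stayed 1.01 above it. When each library was left out in turn, control library 1 included, the median of the members ran from 0.95 to 1.00. Such a fit leaves a single library in a group, so its counts at adjusted p are not given.

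**Figure D1:**
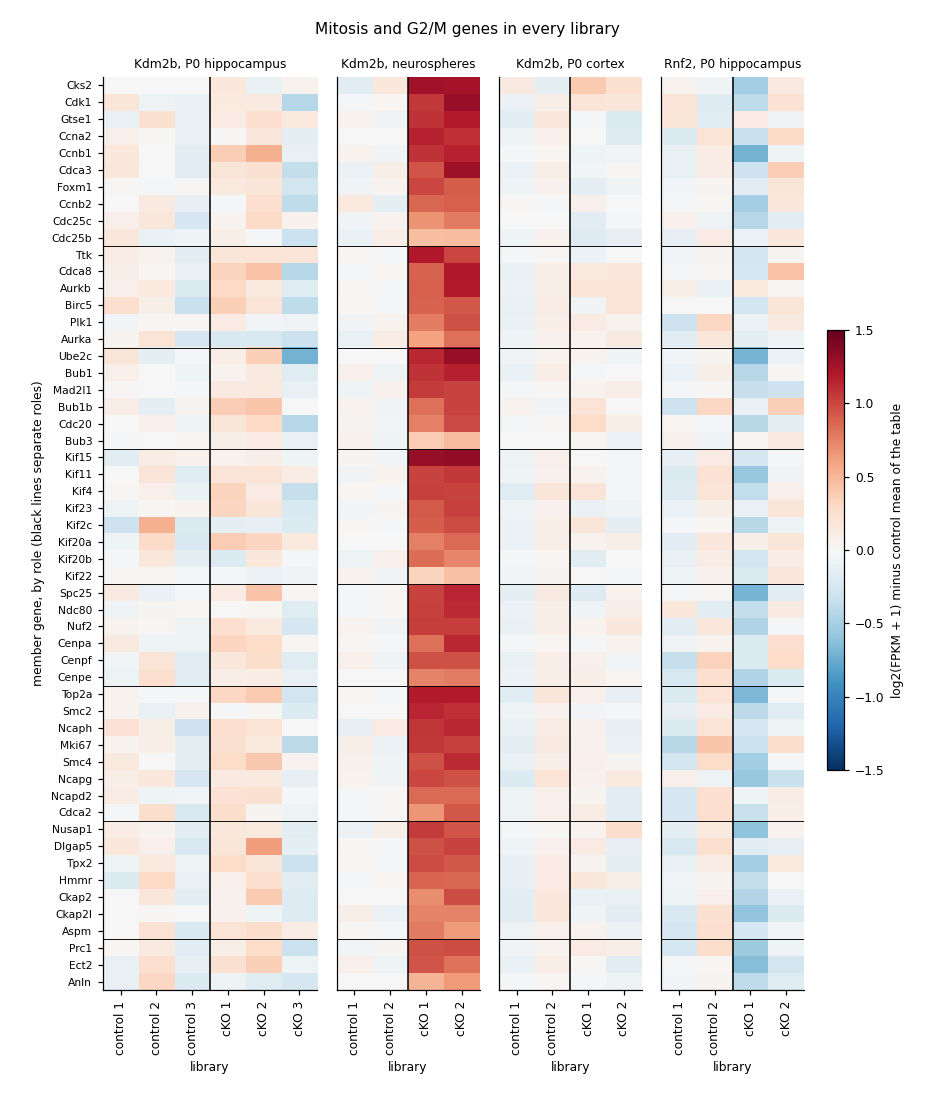
Each row is a member gene, ordered by role and then by its neurosphere fold change, and each column is a library. Colour gives log2(FPKM + 1) minus the control mean of the same table, so values can be compared across a row within a panel. Both cKO neurosphere libraries are red in all 54 rows, while cKO library 3 of the Kdm2b hippocampi and cKO library 1 of the Rnf2 hippocampi are mostly blue.

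Genes of the cyclin B-CDK1 module and its regulators rose in 10 of 10 cases in cKO neurospheres, with a median log2 fold change of 1.11. Cdk1, the kinase that drives entry into mitosis (chr10:69335146-69352938, minus strand, GRCm38), was at 20.0 and 20.8 FPKM in the control libraries and at 43.6 and 52.0 in the cKO libraries. Its groups did not overlap, and its log2 fold change was 1.18 ± 0.11 (SE, adjusted p = 0.0021). Ccnb1, the cyclin B1 that activates CDK1 (chr13:100778650-100786570, minus strand), read 44.4 and 41.1 FPKM in controls and 92.0 and 96.0 in cKO, a log2 fold change of 1.12 ± 0.08 (adjusted p = 0.0017). Both genes thus stood above their controls by more than the spread of either group. Cks2, a small subunit that binds CDK1, was the largest of this module, at 36.4 and 45.9 FPKM in controls and 99.01 and 98.8 in cKO (1.25 ± 0.12, adjusted p = 0.0026). Cdc25b, the phosphatase that starts CDK1 activation, was the smallest, at 17.4 and 20.1 FPKM in controls and 26.02 and 26.1 in cKO (0.46 ± 0.10, adjusted p = 0.025). Its change was therefore less than that of the kinase it activates, although the difference between members was not tested.

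All 6 mitotic kinases and chromosomal passenger genes rose, from 0.71 to 1.10 on the log2 scale. Aurkb, the kinase of the chromosomal passenger complex that corrects faulty attachments (chr11:69045647-69051664, plus strand), was at 17.4 and 16.8 FPKM in controls and at 32.7 and 40.3 in cKO (1.04 ± 0.12, adjusted p = 0.0036). Ttk, which encodes the checkpoint kinase MPS1, was the largest of the group, at 7.93 and 7.72 FPKM in controls and 19.3 and 16.7 in cKO (1.10 ± 0.10, adjusted p = 0.0023). Aurka, the kinase of the spindle poles, was the smallest, at 11.9 and 14.1 FPKM against 20.3 and 23.7 (0.71 ± 0.12, adjusted p = 0.012). The cKO libraries were the higher ones in each of these kinases.

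The 6 genes of the spindle checkpoint and the anaphase-promoting complex also rose, from 0.43 to 1.22. Ube2c, the ubiquitin-conjugating enzyme that works with the complex, was at 75.8 and 76.2 FPKM in controls and 167 and 189 in cKO (1.22 ± 0.10, adjusted p = 0.0018). Bub3, a checkpoint protein that carries the BUB kinases to kinetochores, was at 51.8 and 47.6 FPKM in controls and 65.0 and 69.3 in cKO (0.43 ± 0.09, adjusted p = 0.023). Bub3 passed the study's threshold with all libraries, but fell under a log2 fold change of 0.4 without control library 2 (0.37) or without cKO library 2 (0.38).

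The kinesins, motor proteins that slide and space spindle microtubules, rose in 8 of 8 cases at adjusted p. Kif15, which backs up the motor that pushes the poles apart, had the largest fold change of all members in neurospheres, with 9.89 and 9.35 FPKM in controls and 25.3 and 25.6 in cKO (1.32 ± 0.08, adjusted p = 0.0013). The joined Kif22 entry was at 171 and 158 FPKM in controls and 207 and 223 in cKO (0.39 ± 0.10, adjusted p = 0.044). Among kinesins with an entry of their own, Kif20b was the smallest, at 0.78.

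Kinetochore and centromere genes rose in 6 of 6 cases, from 0.75 to 1.07. Spc25, a subunit of the NDC80 complex that grips microtubules, was at 20.9 and 21.6 FPKM in controls and 43.9 and 48.1 in cKO (1.07 ± 0.09, adjusted p = 0.0018). Cenpe, the kinesin that carries chromosomes to the spindle equator, was at 6.78 and 6.77 FPKM against 11.99 and 12.2 (0.75 ± 0.09, adjusted p = 0.0044). The control libraries of Cenpe differed by far less than its groups did.

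Genes of the condensed chromosome rose in 8 of 8 cases, with a median of 1.04. Mki67, the proliferation marker that coats mitotic chromosomes (chr7:135689784-135716361, minus strand), was at 23.8 and 21.1 FPKM in controls and 47.7 and 46.6 in cKO (1.04 ± 0.09, adjusted p = 0.0021). Top2a, the topoisomerase that untangles sister chromatids (chr11:98992943-99024189, minus strand), was at 49.2 and 46.8 FPKM in controls and 111 and 111 in cKO (1.19 ± 0.08, adjusted p = 0.0014). Top2a had the largest change of this group and Cdca2, which targets a phosphatase to chromatin, the smallest, at 5.73 and 5.85 FPKM in controls and 9.73 and 11.99 in cKO (0.80 ± 0.12, adjusted p = 0.0092). Ncapg, a condensin subunit, was at 8.12 and 7.46 FPKM in controls and 16.6 and 16.1 in cKO (0.98 ± 0.09, adjusted p = 0.0023).

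The 7 genes of spindle assembly and poles and the 3 of the midzone and cytokinesis had the lower medians among the roles, 0.87 and 0.88. Nusap1, which bundles spindle microtubules, was at 15.7 and 18.03 FPKM in controls and 36.0 and 33.4 in cKO (1.00 ± 0.10, adjusted p = 0.0026). Aspm, a spindle pole protein whose human orthologue is mutated in microcephaly, was at 6.97 and 6.77 FPKM against 12.5 and 11.2 (0.71 ± 0.10, adjusted p = 0.0072). Both genes separated the groups. Prc1, which cross-links the central spindle, was at 30.3 and 32.3 FPKM in controls and 61.7 and 62.7 in cKO (0.97 ± 0.08, adjusted p = 0.0019). Anln, an actin-binding protein of the contractile ring, was at 6.93 and 7.04 FPKM in controls and 10.4 and 11.4 in cKO (0.57 ± 0.10, adjusted p = 0.013). Ect2, the exchange factor that activates RhoA at the cleavage furrow, was at 15.4 and 13.7 FPKM in controls and 28.7 and 26.2 in cKO (0.88 ± 0.10, adjusted p = 0.0037).

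**Figure D2:**
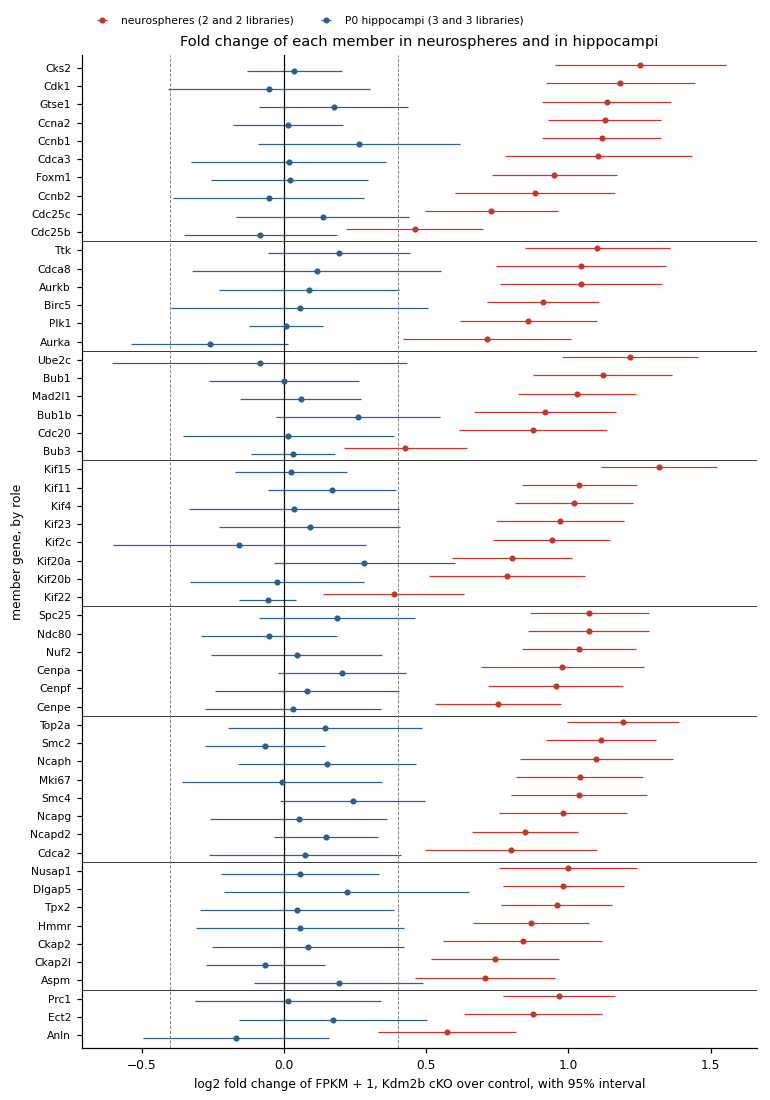
The horizontal axis is the log2 fold change of FPKM + 1, Kdm2b cKO over control, with its 95% interval, for each of the 54 members (rows, by role). Dashed lines mark 0.4 in each direction. All 54 neurosphere intervals lie above 0. All 54 hippocampus intervals hold 0 and end below the neurosphere estimate of the same member, although some entries join neighbouring genes in 1 or both tables.

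Promoter motifs did not set the size of the change apart in this description. The median log2 fold change in neurospheres was 0.96 over the 38 members whose window held a CHR element and 1.04 over the 7 with a window that did not. For the CCAAT box these medians were 0.97 over 35 members and 1.01 over 10.

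Other genes of the cycle moved in the same way in cKO neurospheres. In a list of 49 other mitosis genes 45 rose at adjusted p and none fell, with a median of 0.82, from -0.03 for Pttg1, the securin, to 1.26 for Melk, a kinase of dividing progenitors. Of 40 genes of DNA replication and S phase 39 rose and none fell, with a median of 1.01, from 0.35 for Gins4, a subunit of the replicative helicase, to 1.41 for Cdt1, which loads that helicase. The neurosphere change thus covered genes of S phase as well as of mitosis. Markers of astrocytes went the other way: 6 of 6 fell at adjusted p, with a median of -2.17, and their summed FPKM was 368 to 377 in control and 92.7 to 95.7 in cKO libraries. Gfap, the intermediate filament of astrocytes, had a log2 fold change of -2.05 (adjusted p = 0.0024), and none of the 6 markers was at 0 in any library. Of 6 markers of oligodendrocyte precursors 4 fell at adjusted p and none rose, with a median of -0.83 and the largest fall in Gpr17 (-3.99), while their summed FPKM was 2415 to 2497 in control and 2454 to 2516 in cKO libraries. Of the 7 neuron markers that passed the filter 3 fell and 1 rose, with a median of -0.42, from -2.21 for Dcx to 0.79 for Rbfox3. The summed FPKM of 10 markers of radial glia and intermediate progenitors was 4175 to 4617 in control and 5559 to 7390 in cKO libraries, and 2 of the 9 that passed the filter rose and 1 fell. Markers of microglia were at or near 0, with a sum of at most 0.59 FPKM in any library. The part of cell composition in the rise of the members was not tested.

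The second comparison puts the same genes in whole P0 hippocampi of the same genotypes. No member passed a threshold there. At the study's threshold 0 of 54 rose and 0 fell, where 3.89% of all genes tested rose and 2.25% fell, and at adjusted p under 0.05 (limma) the counts were again 0 and 0, against 4.28% and 3.99% of 13446 genes. At an unadjusted p under 0.05 the counts were also 0 and 0. The median log2 fold change was 0.05, from -0.26 for Aurka to 0.28 for Kif20a, with 41 members positive and 13 negative. The cKO group lay wholly above its controls for 1 member, Ttk, and wholly below for 1, the joined Kif22 entry, where 14.9% and 14.3% of all genes did so. The 95% interval of the fold change held 0 for 54 of 54 members, and its half-width had a median of 0.31. Its upper end lay under 0.4 for 30 members and under the neurosphere estimate of the same member for all 54. A rise of the size seen in neurospheres thus fell outside these intervals for members with an entry of their own in both tables. In hippocampi the entry joined neighbouring genes for Ccna2, Foxm1, Gtse1, Kif15, Kif22 and Plk1, and in neurospheres also for Birc5. For these members the comparison was not between single genes.

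Single genes showed how the libraries spread. Mki67 was at 7.21, 7.46 and 6.13 FPKM in control hippocampi and at 8.26, 7.78 and 5.01 in cKO hippocampi, a log2 fold change of -0.01 ± 0.16 (adjusted p = 0.99). Top2a was at 13.6, 12.9 and 12.8 FPKM in controls and at 16.5, 17.5 and 10.6 in cKO (0.14 ± 0.15, adjusted p = 0.63). In both genes cKO libraries 1 and 2 were the highest of the 6 and cKO library 3 the lowest. Cdk1 was at 7.69, 6.25 and 6.07 FPKM in controls and at 7.45, 7.36 and 4.66 in cKO (-0.05 ± 0.16, adjusted p = 0.89). Ccnb1 was at 8.45, 7.48 and 6.51 FPKM in controls and at 9.89, 11.2 and 6.82 in cKO (0.26 ± 0.16, adjusted p = 0.36). Aurkb was at 6.11, 6.49 and 4.80 FPKM in controls and at 7.32, 6.49 and 4.95 in cKO (0.09 ± 0.14, adjusted p = 0.77). The groups overlapped in each of these genes. Ttk was the exception in its order, at 1.84, 1.73 and 1.35 FPKM in controls and 1.99, 2.04 and 2.01 in cKO, but its fold change of 0.19 ± 0.11 did not pass (adjusted p = 0.34).

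**Figure D3:**
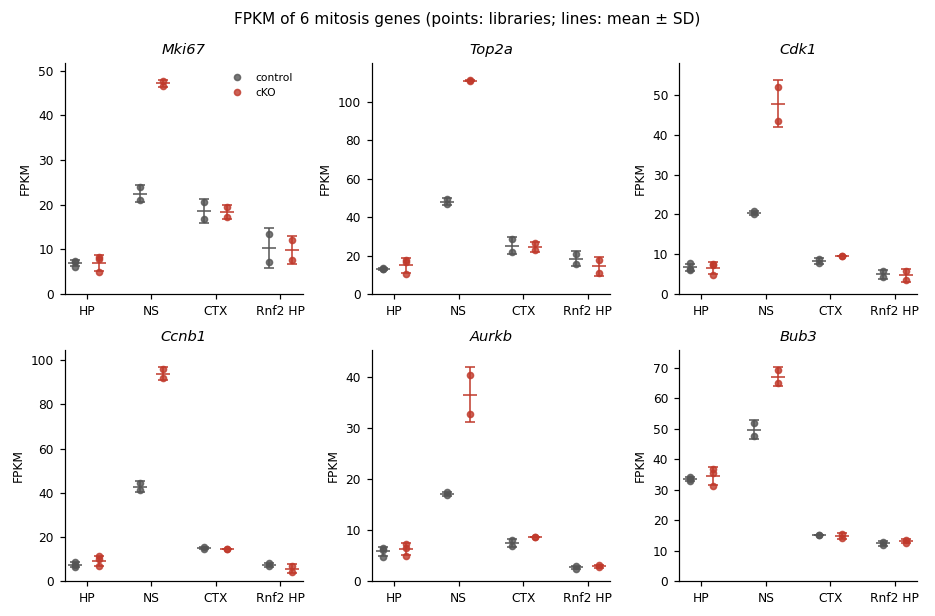
FPKM of 6 member genes in every library (points), with the mean and SD of each group, in P0 hippocampi (HP), neurospheres (NS) and P0 cortices (CTX) of the Kdm2b mice and in P0 hippocampi of the Rnf2 mice (Rnf2 HP). Tables were normalised separately, so heights compare within a table. In neurospheres the cKO points lie above the control points for all 6 genes, by 2.10 times in mean FPKM for Mki67 and 1.35 times for Bub3.

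The other members named by the same rule are given here for the hippocampi, each with its log2 fold change and SE. None passed a threshold. Cks2 was at 13.9, 13.7 and 13.7 FPKM in controls and 15.4, 12.8 and 14.3 in cKO (0.04 ± 0.07). Cdc25b read 8.59, 6.99 and 7.18 FPKM in controls and 8.101, 7.45 and 5.86 in cKO (-0.08 ± 0.12). For Aurka the controls were at 4.81, 5.51 and 3.73 FPKM and the cKO libraries at 3.81, 3.78 and 3.52 (-0.26 ± 0.12). Control and cKO libraries overlapped for Cks2, Cdc25b and Aurka. Ube2c was at 14.8, 11.6 and 12.7 FPKM in controls and 14.00, 16.9 and 7.51 in cKO (-0.08 ± 0.23). Bub3 read 32.9, 33.6 and 34.2 FPKM in controls and 35.6, 36.6 and 31.1 in cKO (0.03 ± 0.07). For Kif15 the controls were at 10.3, 12.8 and 12.3 FPKM and the cKO libraries at 12.2, 12.5 and 11.2 (0.02 ± 0.09). There was overlap between the groups for Ube2c, Bub3 and Kif15. Kif22 was at 189, 190 and 184 FPKM in controls and 184, 176 and 181 in cKO (-0.06 ± 0.04). Spc25 read 5.48, 4.48 and 4.76 FPKM in controls and 5.42, 6.91 and 4.94 in cKO (0.19 ± 0.12). For Cenpe the controls were at 1.36, 1.94 and 1.199 FPKM and the cKO libraries at 1.65, 1.68 and 1.29 (0.03 ± 0.14). Values of both groups overlapped for Spc25 and Cenpe, and the cKO libraries were the lower ones for Kif22. Cdca2 was at 1.59, 2.17 and 1.24 FPKM in controls and 2.16, 1.71 and 1.51 in cKO (0.07 ± 0.15). Nusap1 read 4.01, 3.81 and 3.12 FPKM in controls and 4.23, 4.14 and 3.17 in cKO (0.06 ± 0.12). For Aspm the controls were at 1.66, 2.08 and 1.26 FPKM and the cKO libraries at 2.04, 2.17 and 1.87 (0.19 ± 0.13). No separation of the groups was seen for Cdca2, Nusap1 and Aspm. Prc1 was at 8.06, 8.73 and 6.98 FPKM in controls and 8.47, 9.73 and 6.14 in cKO (0.01 ± 0.14). Anln read 1.99, 2.99 and 1.79 FPKM in controls and 2.05, 1.84 and 1.71 in cKO (-0.17 ± 0.14). For Ect2 the controls were at 2.25, 3.14 and 2.21 FPKM and the cKO libraries at 3.12, 3.51 and 2.33 (0.17 ± 0.15). The groups overlapped for Prc1, Anln and Ect2. Ncapg was at 2.52, 2.64 and 1.74 FPKM in controls and 2.59, 2.62 and 2.02 in cKO (0.05 ± 0.14). Control and cKO libraries overlapped for Ncapg.

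The same split ran through the whole group of members. Against the control mean, the median member was higher by 0.15 and 0.18 in cKO libraries 1 and 2, and 46 members were above that mean in each. In cKO library 3 the median member was at -0.16, with 10 of 54 above. Control library 3 was also low, at -0.11, with 8 of 54 above. Without cKO library 3 the median fold change was 0.19, 2 members passed the study's threshold (Ccnb1 at 0.45 and Dlgap5 at 0.40), and 3 passed adjusted p under 0.05 (Top2a at adjusted p = 0.019, Ccnb1 at 0.048 and Cdca8 at 0.036). Without control library 2, Kif20a passed the study's threshold at 0.43. The share of all genes called in these smaller fits is not given here, so the counts cannot be read against a background. With all libraries 3.89% of all genes rose at the study's threshold. Choroid plexus markers were unequal among these libraries, with summed FPKM of 59.5 and 40.1 in cKO libraries 1 and 2, 6.84 in cKO library 3 and 5.21 to 16.3 in controls, and none of them was at 0. Their part in the split was not tested.

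Markers of progenitors and neurons differed between the same hippocampi while the members did not pass. Of 10 markers of radial glia and intermediate progenitors 8 rose at adjusted p, with a median of 0.41. Fabp7 was the 1 marker with a negative change, at -0.17 (unadjusted p under 0.05, limma). Eomes, the transcription factor of intermediate progenitors also called TBR2, rose by 1.16 (adjusted p = 0.00012) and Neurog2, a proneural factor, by 1.42 (adjusted p = 0.00012). The paper reports fewer repressive histone marks at the promoters of Pax6 and Eomes in P0 cKO hippocampi. The part of cell numbers in the rise of these markers was not tested. Of 9 neuron markers 5 fell, and their summed FPKM was 2352 to 2422 in control and 1847 to 2111 in cKO libraries. In hippocampi 0 of 49 other mitosis genes passed adjusted p, with a median of 0.07 and 1 at an unadjusted p under 0.05, and 1 of 40 S phase genes rose at adjusted p, Uhrf1, which maintains DNA methylation at the replication fork (0.29, adjusted p = 0.029). The median of the S phase genes was 0.13, with 33 of 40 positive. At an unadjusted p under 0.05 (limma) 12 of 40 were higher and 0 lower, where 1537 of all 13446 genes were higher and 1553 lower. The share of S phase genes that were higher was thus above that of all genes.

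**Figure D4:**
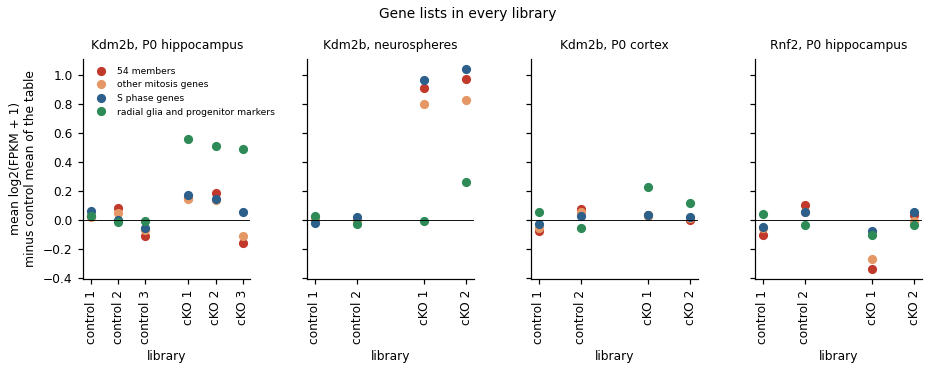
Mean log2(FPKM + 1) of 4 gene lists in every library, minus the control mean of the same table. In neurospheres the members and the S phase genes lie near 1 above the controls in both cKO libraries, while in Kdm2b hippocampi the progenitor markers lie well above the controls in all 3 cKO libraries and the members of cKO library 3 lie below them.

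Whether the change differed between neurospheres and hippocampi was tested directly, as the difference of the 2 cKO against control differences (limma). The difference was positive for all 54 members and passed an adjusted p under 0.05 for 51, where 12.7% of 11086 genes differed in this direction and 14.3% in the other. Its median was 0.90, from 0.39 for Bub3 to 1.30 for Ube2c. Cdk1 differed by 1.23 ± 0.23 (adjusted p = 0.0029), Mki67 by 1.05 ± 0.22 (adjusted p = 0.0060) and Top2a by 1.05 ± 0.22 (adjusted p = 0.0051). The 3 that did not pass were Aspm, at 0.51 ± 0.18 (adjusted p = 0.058), Dlgap5, at 0.76 (adjusted p = 0.055), and Kif20a, at 0.52 (adjusted p = 0.070). Dlgap5 and Kif20a fell outside the rule for named genes and are given because only 3 missed. Leaving out the members that share an entry with another gene in either table kept 44 of them past the threshold with a median of 0.89. Culture, passage and cell composition differ between these tables along with the source, and cannot be told apart here.

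The third comparison, P0 cortices of the same Kdm2b genotypes, showed no shift of the members. At the study's threshold 0 rose and 0 fell, against 4.73% and 2.28% of 15691 genes, and at adjusted p under 0.05 (limma) 0 and 0, against 0.37% and 0.0574%. No member had an unadjusted p under 0.05. With limma-voom on the recovered reads 0 members were called in each direction. There 1047 of 15691 genes were higher and 412 lower at the study's threshold, and 402 and 83 at adjusted p. The median was -0.01, from -0.16 for Cdc25b to 0.31 for Cks2, with 25 members positive and 29 negative. The cKO pair lay wholly above the control pair for 8 members and wholly below for 6, where 22% and 22.8% of all genes did so. Mki67 was at 16.8 and 20.5 FPKM in controls and at 19.5 and 17.3 in cKO (-0.02 ± 0.12, adjusted p = 0.97), and Top2a at 21.9 and 28.4 against 26.4 and 22.7 (-0.02 ± 0.15, adjusted p = 0.96). Both genes overlapped between groups. Cks2 was at 33.2 and 27.2 FPKM in controls and at 39.9 and 35.5 in cKO, above both controls, but did not pass (0.31 ± 0.12, adjusted p = 0.39). It passed the study's threshold at 0.45 without control library 1. Cdk1 was at 7.72 and 8.91 FPKM in controls and 9.61 and 9.51 in cKO (0.18 ± 0.09, adjusted p = 0.50), and Ccnb1 at 14.8 and 15.4 against 14.4 and 14.7 (-0.05 ± 0.07, adjusted p = 0.82). The upper end of the 95% interval lay under 0.4 for 45 of 54 members and under the neurosphere estimate for all 54. Meninges markers summed to 1.17 and 1.80 FPKM in control and 24.3 and 16.3 in cKO cortices, and all 5 were above 0 in every library. At the study's threshold these 5 were higher in cKO cortices, 2 of them at adjusted p. Blood markers summed to 413 and 444 FPKM in control and 682 and 606 in cKO cortices, with 3 of the 4 that passed the filter higher at the study's threshold and 0 at adjusted p. The part of these markers in the cortex values was not tested. Tested against the hippocampi, 0 of 54 members differed in either direction at adjusted p, with 1.18% of 10723 genes differing upward and 0.448% downward.

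The remaining named members in cortices, none of which passed, were as follows. Aurkb was at 6.89 and 7.97 FPKM in controls and 8.66 and 8.66 in cKO (0.20 ± 0.09). Ttk read 3.31 and 3.395 FPKM in controls and 3.11 and 3.36 in cKO (-0.04 ± 0.09). For Cdc25b the controls were at 7.64 and 8.49 FPKM and the cKO libraries at 6.91 and 7.32 (-0.16 ± 0.09). There was overlap between the groups for Ttk, and the cKO libraries were the higher ones for Aurkb, and the cKO libraries were the lower ones for Cdc25b. Aurka was at 7.55 and 8.401 FPKM in controls and 8.29 and 8.87 in cKO (0.10 ± 0.09). Ube2c read 16.02 and 17.4 FPKM in controls and 17.3 and 15.9 in cKO (-0.01 ± 0.09). For Bub3 the controls were at 15.1 and 15.1 FPKM and the cKO libraries at 15.5 and 14.1 (-0.03 ± 0.08). Values of both groups overlapped for Aurka, Ube2c and Bub3. Kif15 was at 3.33 and 3.799 FPKM in controls and 3.58 and 3.46 in cKO (-0.01 ± 0.10). Kif22 read 6.72 and 7.11 FPKM in controls and 6.92 and 6.84 in cKO (-0.01 ± 0.08). For Spc25 the controls were at 8.13 and 10.005 FPKM and the cKO libraries at 7.78 and 9.41 (-0.07 ± 0.14). No separation of the groups was seen for Kif15, Kif22 and Spc25. Cenpe was at 4.35 and 5.005 FPKM in controls and 5.004 and 4.78 in cKO (0.06 ± 0.10). Cdca2 read 3.33 and 3.82 FPKM in controls and 3.93 and 3.08 in cKO (-0.03 ± 0.13). For Nusap1 the controls were at 11.3 and 11.7 FPKM and the cKO libraries at 11.9 and 14.01 (0.16 ± 0.10). The groups overlapped for Cenpe and Cdca2, and the cKO libraries were the higher ones for Nusap1. Aspm was at 4.12 and 4.68 FPKM in controls and 4.596 and 4.08 in cKO (-0.02 ± 0.10). Prc1 read 6.44 and 7.06 FPKM in controls and 7.47 and 7.26 in cKO (0.11 ± 0.08). For Anln the controls were at 2.24 and 2.39 FPKM and the cKO libraries at 2.24 and 2.14 (-0.05 ± 0.10). Control and cKO libraries overlapped for Aspm, and the cKO libraries were the higher ones for Prc1, and the cKO libraries were the lower ones for Anln. Ect2 was at 6.68 and 7.85 FPKM in controls and 7.33 and 6.35 in cKO (-0.08 ± 0.11). Ncapg read 3.13 and 4.48 FPKM in controls and 3.97 and 4.28 in cKO (0.11 ± 0.15). There was overlap between the groups for Ect2 and Ncapg.

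**Figure D5:**
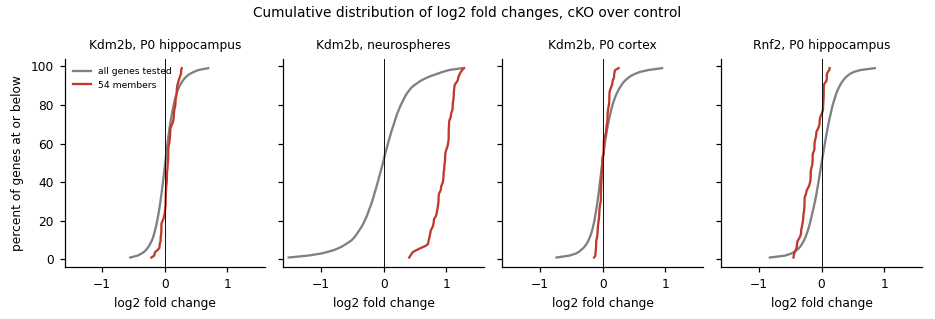
Percent of genes at or below each log2 fold change, cKO over control, for all genes tested (grey) and for the 54 members (red), with 1 panel per comparison. The member curve lies far to the right in neurospheres (median 0.98), close to the curve of all genes around 0 in Kdm2b hippocampi and cortices, and slightly to the left in Rnf2 hippocampi (median -0.15).

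The fourth comparison sets hippocampi labelled Rnf2 cKO against their controls, with Rnf2 itself at a log2 fold change of -0.16 (adjusted p = 0.76). In the hippocampi labelled Rnf2 cKO the members leaned low, but their libraries spread widely. At the study's threshold 2 of 54 fell and 0 rose, where 1.85% of 15764 genes fell and 2.86% rose. A count of 2 is too small to tell the members from this background. At adjusted p under 0.05 (limma) the counts were 0 and 0, as for all genes, where 0% rose and 0% fell. With limma-voom on the recovered reads 0 members passed adjusted p in each direction, where 4 of 15764 genes rose and 0 fell. At the study's threshold limma-voom called 3 members lower, where 354 of all genes were lower and 402 higher. The median was -0.15, from -0.45 for Ect2 to 0.13 for Kif20a, with 40 members negative and 14 positive. Both cKO libraries were below both controls for 11 members and above for 0, where 18.7% and 19.5% of all genes were. All 7 genes of spindle assembly and all 3 of cytokinesis were negative, with medians of -0.18 and -0.30, though only Ect2 among them passed the study's threshold.

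The 2 genes that passed were Ncapg (chr5:45669919-45700546, plus strand) and Ect2 (chr3:27097222-27153878, minus strand). Ncapg was at 2.53 and 2.201 FPKM in controls and at 1.28 and 1.68 in cKO (-0.45 ± 0.17, adjusted p = 0.69). Ect2 was at 3.31 and 3.44 FPKM in controls and at 1.82 and 2.63 in cKO (-0.45 ± 0.18, adjusted p = 0.69). Both cKO libraries lay under both controls in each gene. Ncapg lost its call whichever of the 4 libraries was left out, with values from -0.56 to -0.33, and Ect2 kept its call only without cKO library 2, at -0.63, and lost it without any of the others, at -0.47 to -0.27. Mki67 was at 7.12 and 13.5 FPKM in controls and at 7.68 and 11.996 in cKO (-0.03 ± 0.33, adjusted p = 0.99), and Top2a at 15.6 and 21.0 against 10.98 and 17.7 (-0.35 ± 0.25, adjusted p = 0.78). The controls of Mki67 differed from each other more than the group means did. Cdk1 was at 5.69 and 4.16 FPKM in controls and 3.51 and 5.82 in cKO (-0.08 ± 0.24, adjusted p = 0.96). Ube2c was at 7.76 and 8.23 FPKM in controls and 4.54 and 7.46 in cKO (-0.39 ± 0.22, adjusted p = 0.74), and Spc25 at 4.84 and 4.94 against 2.62 and 4.26 (-0.43 ± 0.21, adjusted p = 0.73).

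The remaining named members in Rnf2 hippocampi did not pass either threshold. Ccnb1 was at 6.77 and 8.002 FPKM in controls and 4.13 and 6.98 in cKO (-0.39 ± 0.23). Aurkb read 2.93 and 2.44 FPKM in controls and 3.08 and 2.73 in cKO (0.08 ± 0.15). For Ttk the controls were at 1.698 and 1.87 FPKM and the cKO libraries at 1.304 and 1.87 (-0.11 ± 0.19). Values of both groups overlapped for Ccnb1, Aurkb and Ttk. Cks2 was at 14.3 and 13.2 FPKM in controls and 9.36 and 15.2 in cKO (-0.19 ± 0.22). Cdc25b read 5.27 and 6.41 FPKM in controls and 5.42 and 6.58 in cKO (0.03 ± 0.16). For Aurka the controls were at 3.46 and 4.65 FPKM and the cKO libraries at 3.56 and 3.81 (-0.10 ± 0.16). No separation of the groups was seen for Cks2, Cdc25b and Aurka. Bub3 was at 12.9 and 11.8 FPKM in controls and 12.7 and 13.6 in cKO (0.08 ± 0.12). Kif15 read 1.69 and 2.199 FPKM in controls and 1.46 and 1.87 in cKO (-0.14 ± 0.18). For Kif22 the controls were at 2.399 and 2.69 FPKM and the cKO libraries at 2.04 and 2.95 (-0.03 ± 0.18). The groups overlapped for Bub3, Kif15 and Kif22. Cenpe was at 1.92 and 3.09 FPKM in controls and 1.52 and 1.99 in cKO (-0.33 ± 0.22). Cdca2 read 0.924 and 1.72 FPKM in controls and 0.815 and 1.46 in cKO (-0.11 ± 0.26). For Nusap1 the controls were at 5.203 and 6.54 FPKM and the cKO libraries at 3.504 and 6.07 (-0.28 ± 0.24). Control and cKO libraries overlapped for Cenpe, Cdca2 and Nusap1. Aspm was at 1.303 and 2.27 FPKM in controls and 1.31 and 1.68 in cKO (-0.14 ± 0.23). Prc1 read 3.33 and 5.29 FPKM in controls and 2.62 and 3.94 in cKO (-0.30 ± 0.25). For Anln the controls were at 1.65 and 1.81 FPKM and the cKO libraries at 1.102 and 1.398 (-0.28 ± 0.18). There was overlap between the groups for Aspm and Prc1, and the cKO libraries were the lower ones for Anln.

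The low values lay mostly in 1 library. Against the control mean, the median member was at -0.35 in Rnf2 cKO library 1, with 4 of 54 members above, and at 0.02 in cKO library 2, with 29 above. The control libraries were at -0.11 and 0.11. Without cKO library 1 the median fold change was 0.02, and without cKO library 2 it was -0.35. Choroid plexus markers summed to 242 FPKM in cKO library 1 against 7.73 in cKO library 2 and 50.4 and 12.5 in the controls, and no marker of the list was at 0. Meninges markers were lowest in the same library, with sums of 12.6 FPKM in cKO library 1, 19.6 in cKO library 2 and 27.3 in each control. Of these 5 markers 3 were lower at the study's threshold and 0 at adjusted p, with a median of -0.61, and none was at 0. The part of both lists in the low values was not tested. The S phase genes did not share the lean in full, with a median of -0.01 and 18 of 39 positive. The 49 other mitosis genes had a median of -0.17, with 40 negative and 1 lower at the study's threshold. Half-widths of the 95% intervals had a median of 0.52, and the lower end of the interval lay above -0.4 for only 4 members. Tested against the Kdm2b hippocampi, 0 of 54 members differed at adjusted p in either direction, with 0.399% of 11281 genes differing upward and 0.248% downward.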

How the data were processed

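The libraries were poly(A)-selected RNA libraries for Illumina sequencing. For Kdm2b hippocampi and neurospheres the authors trimmed reads with cutadapt, aligned them to mm10 with STAR and deposited FPKM from Cufflinks (version 2.2.1). The tables of cortices and Rnf2 hippocampi hold deposited FPKM per Ensembl gene with gene lengths, on GRCm38, and the tool that made them is not given in the sources used here. FPKM is scaled per library, so it gives shares and not amounts per cell. From FPKM times length, whole reads were recovered for 100% of low values (tolerance 0.05 reads), and limma-voom on these reads was run as an alternative. Where FPKM alone was given, the reads of each library could not be recovered, so the counting error is unknown.

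Values were analysed as log2(FPKM + 1) with limma (version 3.58.1, R 4.3.3; trended moderation) in those genes whose mean reached 0.5 FPKM, without a replicate block, cKO against control within each table, with 95% intervals and Benjamini-Hochberg adjustment over all genes tested. Fold changes are on the log2(FPKM + 1) scale and understate those of low genes. Differences between tables were fitted as interactions. The fit was tested on simulated data. Values by library are given for Mki67, Top2a, Cdk1, Ccnb1 and Aurkb, for the largest and smallest neurosphere change in each role and for members called in a tissue. The members, lists and this rule were chosen with earlier results of these data known. Alternatives were another pseudocount (0.1), filter and scaling, no trend, summed entries, a replicate block and each library left out.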

Additional observations from a re-analysis of the deposited data

Results flagged for a closer look

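The change of the members differed between neurospheres and hippocampi of the Kdm2b mice by a test of the difference itself (limma interaction), which flagged 51 of the 54 members; the median difference over all 54 was 0.90 on the log2 scale. Among the genes described by library it was 1.05 for Mki67, 1.05 for Top2a, 1.23 for Cdk1, 0.85 for Ccnb1 and 0.96 for Aurkb. It was 1.22 for Cks2, 0.54 for Cdc25b, 0.91 for Ttk, 0.98 for Aurka, 1.30 for Ube2c and 0.39 for Bub3. It was 1.30 for Kif15 and 0.44 for the joined Kif22 entry, both of which share an entry with other genes in hippocampi. It was 0.89 for Spc25, 0.72 for Cenpe, 0.72 for Cdca2 and 0.94 for Nusap1. It was 0.95 for Prc1, 0.74 for Anln, 0.70 for Ect2 and 0.93 for Ncapg.

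Some gene names had further entries in the neurosphere table, which the comparisons did not use, and 3 of these also had both cKO libraries above both controls. The second entry of Cdk1 was at 1.17 and 0.80 FPKM in control and 3.24 and 3.68 in cKO libraries, and the lowest of its 3 entries at 0.36 and 0.36 against 1.06 and 1.03. The second entry of Cenpa, the centromeric histone, was at 1.69 and 1.45 FPKM in control and 3.67 and 3.80 in cKO libraries. The second entry of Mki67 did not separate the groups, with 0.069 and 4.68 FPKM in control and 3.13 and 4.50 in cKO libraries. Groups of 2 and 3 libraries are too small for the search for single outlying samples.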

How the results depend on the processing

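Of 297 group values under alternatives that kept every library 290 stayed within the limits set for a change, and none reversed. In neurospheres the median of the members was 1.03 with a pseudocount of 0.1 and 1.30 with the same FPKM total, which also left 0 members at adjusted p; the median difference from hippocampi was then 1.21. Control library 1 holds the excess total. In Rnf2 hippocampi 0 members were called lower with no filter on low values, 1 with a minimum of 1 FPKM, and 4 with the replicate block. Leaving out 1 library at a time gave 0 to 2 members called higher in Kdm2b hippocampi, 0 to 3 at adjusted p there, 34 to 54 at adjusted p in neurospheres with medians from 0.95 to 1.00, 0 to 1 called higher in cortices, and 0 to 7 called lower in Rnf2 hippocampi; single-library groups were assumed to vary like the others. Whether the numbers of the labels pair the libraries could not be settled. Deviations of same-numbered libraries correlated at 0.049, -0.103 and -0.086 in Kdm2b hippocampi, -0.277 in neurospheres, -0.053 in cortices and 0.161 in Rnf2 hippocampi. In groups of 2 libraries, crossing the numbers only turns the sign of such a value. With the block 52 members stayed at adjusted p in neurospheres, and with the crossed pairing 54. The crossed pairing and the counts without shared entries were added after seeing the data. The reads of each library could not be recovered for the Cufflinks tables.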
